A study of Arabidopsis thaliana with 24 samples.

Results

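Expansins and xyloglucan endotransglucosylase/hydrolases (XTH) are the main families of wall-loosening and wall-remodelling proteins of growing plant cells. The 48 genes described here, 22 expansins and 26 XTH, were chosen by family name and locus identifier, and all 48 had a row in the table of 20514 loci. The list does not hold every expansin, since EXPA7 and EXPA18 were used as root markers. Rosette leaf RNA of the Arabidopsis thaliana accessions Tsu-1 (stock CS1640) and Kas-1 (stock CS903) was hybridised as biotin-labelled cRNA to 24 expression arrays. The arrays formed 4 groups of 6, which were Tsu-1 dry, Tsu-1 wet, Kas-1 dry and Kas-1 wet. Dry pots lost water stepwise until about 50% remained on day 5, and wet pots stayed near 90%. All plants grew singly in pots of ceramic medium in a short-day chamber with daily water and regular nutrient solution, and no mutant or transgene was involved.

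Primary walls are cellulose microfibrils held in a matrix of xyloglucan and pectin. Expansins loosen the contacts between cellulose and matrix without cutting the polymers, mostly at acid pH, and fall into the alpha (EXPA), beta (EXPB) and expansin-like (EXLA, EXLB) groups. XTH enzymes cut xyloglucan chains and mostly join the cut ends to other chains, so they can loosen a wall or build new xyloglucan into it. Both families act in leaf expansion, and single members serve particular places such as guard cells, veins, roots or pollen.

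The deposited values are log2 expression values, so a difference of 1 is a doubling. The array medians lay between 6.77 and 6.87, and arrays of the same group correlated at 0.872 to 0.995 over the tested loci. The design text names 3 biological replicates per combination where 6 arrays exist, and no label says which arrays share a plant or an RNA, so p-values reflect only how much arrays of a group vary, which may in part be technical. Kas-1 dry arrays 4 and 5 were the most alike pair (r = 0.995, and 0 identical values), while Tsu-1 wet arrays 7 and 9 and Kas-1 dry arrays 1 and 2 stood apart with limma array weights of 0.358, 0.314, 0.416 and 0.283. The call counts, and the drying signs within each accession, are given with and without these 4 arrays. Of the leaf markers, CA1 and GOX1 were analysed, with a mean of the pair between 11.28 and 12.66 on every array, and all 5 flower markers had means below the lower quartile of all loci (5.21).

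Loci were tested when their mean over the 24 arrays exceeded 6.19, the 40th percentile of all loci. This left 31 of the 48 members, namely 16 expansins and 15 XTH. The other 17 had low values in every group, and none had a group mean above that limit in any of the 4 groups. They were the expansins EXPA9, EXPA14, EXPA17, EXPB1, EXPB3 and EXLA3, and the enzymes XTH3, XTH5, XTH10, XTH15, XTH19, XTH20, XTH21, XTH23, XTH25, XTH26 and XTH31. Both listed beta-expansins were thus below the limit, as were XTH19, XTH20, XTH21 and XTH26, which are known mainly from roots, and EXPA17, which is known from emerging lateral roots. Counts of calls below refer to these 31. A call means an adjusted p under 0.05 in limma, adjusted over all 12308 tested loci.

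Soil drying moved no tested expansin or XTH past the threshold. Averaged over the accessions, dry minus wet gave 0 of 31 called members, against 16 of 12308 loci (0.13%). At an unadjusted p under 0.05 there were 4 members, all XTH, against 9.35% of all loci. The members' log2 differences ran from -0.59 to 0.45 with a median of -0.09, beside a median of -0.02 over all tested loci. Differences below 0 occurred in 12 of 16 expansins and 10 of 15 XTH, against 57.4% of all loci. In whole leaves, fewer cells of a type and less RNA per cell cannot be told apart.

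Among the XTH, XTH33 (AT1G10550) had the smallest p. In Tsu-1 its lowest, median and highest values were 5.31, 6.25 and 6.53 in dry soil, against 6.48, 6.85 and 6.99 in wet soil. In Kas-1 they were 5.67, 6.24 and 7.15 in dry soil, against 6.06, 6.68 and 7.43 in wet soil. Of the 12 dry arrays, 10 lay below the wet median and 4 lay below every wet array, and the groups overlapped in both accessions. The averaged difference was -0.48 ± 0.18 (SE, 12 arrays against 12; 95% interval -0.85 to -0.11), with an adjusted p of 0.346.

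XTH9 (AT4G03210) and XTH16 (AT3G23730) also had lower means in dry soil. XTH16 had a lowest, median and highest value of 5.53, 7.02 and 8.33 in the 12 dry arrays, against 6.52, 7.59 and 8.57 in the 12 wet arrays. Its difference was -0.59 ± 0.27 (SE, 95% interval -1.15 to -0.04, adjusted p = 0.478). For XTH9 the same values were 8.71, 10.28 and 10.96 in dry soil, against 9.46, 10.51 and 11.84 in wet soil. Here 8 of 12 dry arrays lay below the wet median, 3 of them below all wet arrays, and the difference was -0.58 ± 0.27 (SE, 95% interval -1.14 to -0.01, adjusted p = 0.516). Array weights gave smaller differences, -0.38 for XTH16 and -0.35 for XTH9.

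XTH17 (AT1G65310) ran the other way. Its lowest, median and highest values were 6.89, 7.35 and 8.25 in dry soil and 6.76, 7.03 and 7.74 in wet soil. Of the dry arrays, 10 of 12 lay above the wet median, and the difference was 0.32 ± 0.14 (SE, 95% interval 0.03 to 0.62, adjusted p = 0.459). XTH17 belongs with XTH18, XTH19 and XTH20 to a small subfamily known mostly from roots. XTH18 had the highest difference of all members, 0.45 ± 0.31 (SE), but with a wider interval of -0.18 to 1.09 (adjusted p = 0.687). XTH22 (TCH4), the touch-induced XTH, had a difference of 0.09 ± 0.17 (SE, 95% interval -0.27 to 0.44).

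Among the expansins, EXPA1 (AT1G69530), which acts in guard cell walls and stomatal opening, had the smallest p. Its lowest, median and highest values were 10.28, 10.50 and 11.04 in Tsu-1 dry leaves, against 9.16, 10.33 and 11.39 in Tsu-1 wet leaves. Kas-1 gave 9.43, 10.02 and 10.23 in dry leaves, against 9.15, 9.38 and 9.99 in wet leaves. The Tsu-1 wet arrays spanned the Tsu-1 dry range at both ends. The averaged difference was 0.37 ± 0.19 (SE, 95% interval -0.02 to 0.76), with an adjusted p of 0.557, and array weights gave 0.19.

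The next expansins by p all had lower means in dry soil, by small amounts. EXPA16 (AT3G55500) had a difference of -0.15 ± 0.08 (SE, 95% interval -0.32 to 0.02), with 6.62, 6.94 and 7.56 in dry soil against 6.81, 7.02 and 7.61 in wet soil. EXLA2 (AT4G38400) had a difference of -0.17 ± 0.09 (SE, 95% interval -0.36 to 0.02), with 5.71, 6.10 and 6.62 in dry soil against 6.05, 6.36 and 6.66 in wet soil. In each of these genes 4 of 12 dry arrays lay below every wet array. With array weights EXPA16 differed by -0.06, and without the 4 arrays that stood apart EXLA2 differed by -0.11. EXPA4 (AT2G39700) had a difference of -0.23 ± 0.16 (SE, 95% interval -0.55 to 0.09), and its 12 dry arrays (6.40, 7.24 and 8.11) overlapped the wet arrays (6.19, 7.55 and 8.20) over most of the range. EXPA10 (AT1G26770), an expansin known for its part in leaf and petiole growth, differed by 0.00 ± 0.15 (SE, 95% interval -0.31 to 0.32).

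**Figure D1:**
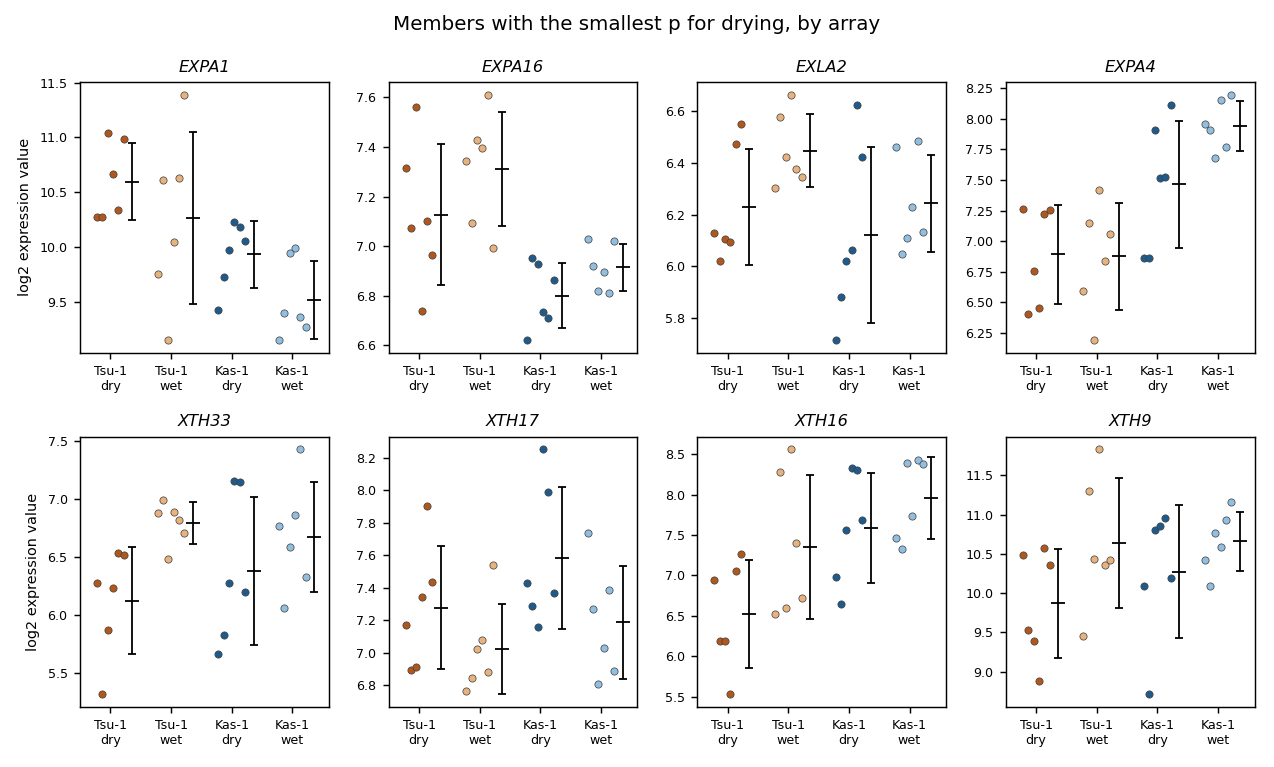
Log2 expression values of the 4 expansins and 4 XTH with the smallest p for dry minus wet soil, by group. Points are arrays, and the bar beside each group is its mean ± SD (6 arrays). Dry and wet arrays overlap in every panel, XTH33 in Tsu-1 comes nearest to separation (5.31 to 6.53 in dry soil, 6.48 to 6.99 in wet soil), and no member passed the test.

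Within each accession drying also gave 0 called members of 31. The share of all tested loci called was 0.00812% for Tsu-1, and for Kas-1 it was 0.0731%. At an unadjusted p under 0.05 there were 2 members in Tsu-1 (4.8% of loci) and 2 in Kas-1 (10.7% of loci). In Tsu-1 the lowest members were XTH16 at -0.82 ± 0.38, XTH9 at -0.77 ± 0.38 and XTH33 at -0.67 ± 0.25 (SE, 6 arrays against 6). In Kas-1 the p-values were smallest for EXPA20 and EXPA4, with differences of -0.17 and -0.48, and XTH18 stood highest at 0.74 ± 0.43 (SE). In no member did the 6 dry and 6 wet arrays of an accession separate, where 0.219% of loci did so in Tsu-1, and 1.14% did so in Kas-1.

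Within an accession, the signs of the expansin differences depended on the 4 arrays that stood apart. With all arrays, 5 of 16 expansins lay below 0 in Tsu-1 (49.8% of all loci), with a median of 0.05, and 14 of 16 in Kas-1 (60.9% of all loci), with a median of -0.16. Without the 4 arrays the count was 12 of 16 in Tsu-1 (47.9% of all loci), with a median of -0.14, and 8 of 16 in Kas-1 (59.1% of all loci), with a median of -0.02. The order of the accessions was thus turned round. EXPA1 in Tsu-1, for one, differed by 0.33 with all arrays and by -0.08 without the 4.

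The XTH had 10 of 15 below 0 in Tsu-1 and 9 of 15 in Kas-1, and without the 4 arrays 10 of 15 in Tsu-1 and 4 of 15 in Kas-1. XTH16, XTH9 and XTH33 then differed by -1.22, -1.11 and -0.73 in Tsu-1, and by 0.02, 0.05 and 0.02 in Kas-1, with no adjusted p under 0.05. The interaction, the drying difference in Tsu-1 minus that in Kas-1, called 0 of 31 members and 0% of loci, and 0 members had an unadjusted p under 0.05, against 5.87% of loci. Interactions below 0 occurred in 4 of 16 expansins and 10 of 15 XTH, against 40.1% of loci, and without the 4 arrays in 12 of 16 expansins and 13 of 15 XTH, against 43.2% of loci. Its smallest adjusted p among members was 0.836, for EXPA8, whose interaction was 0.82 ± 0.40 (SE, 95% interval -0.01 to 1.66). The widest estimates, 0.89 for XTH32 and 0.88 for EXPA3, had intervals of -0.08 to 1.86 and -0.10 to 1.85. Without the 4 arrays the interactions of EXPA8, XTH32 and EXPA3 were 0.12, 0.27 and 0.16. In Kas-1 dry arrays 1 and 2, which stood apart, 1 and 3 of the 16 expansins lay above the group mean, against 12 to 15 in the other Kas-1 dry arrays. That mean includes arrays 1 and 2, which lower it, so the counts of the other arrays follow in part from theirs.

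The accessions differed in many members. Averaged over the soils, Tsu-1 minus Kas-1 called 16 of 31 members, against 47.7% of all tested loci, so the families' share was near that of the array as a whole. Called higher in Tsu-1 were 8 members (23.3% of all loci), and called lower were 8 (24.5% of all loci). Of the expansins, EXPA1, EXPA2, EXPA8, EXPA16 and EXLA1 were higher and EXPA3, EXPA4, EXPA6, EXPA13 and EXPA15 were lower. Of the XTH, XTH6, XTH24 and XTH27 were higher and XTH7, XTH16 and XTH32 were lower. The median size of the difference was 0.41 for expansins and 0.24 for XTH, beside 0.20 for all tested loci. Probe sequences were not used here, so a difference in transcript level and a difference in how the probes bind the alleles of an accession cannot be told apart.

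EXPA8 (AT2G40610) had the widest difference of the expansins. Its lowest, median and highest values were 9.67, 10.60 and 10.88 in Tsu-1 dry leaves, against 7.77, 9.04 and 9.48 in Kas-1 dry leaves. In wet soil they were 9.12, 10.30 and 10.64 in Tsu-1, against 8.79, 9.37 and 9.75 in Kas-1. Every dry Tsu-1 array thus exceeded every dry Kas-1 array, while the wet arrays overlapped. The averaged difference was 1.25 ± 0.20 (SE, 12 arrays against 12; adjusted p = 3.02e-05), a 2.38-fold higher level in Tsu-1.

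The other alpha-expansins of higher level in Tsu-1 were EXPA1, EXPA2 and EXPA16. EXPA1 had 9.16, 10.48 and 11.39 in the 12 Tsu-1 arrays, against 9.15, 9.84 and 10.23 in the 12 Kas-1 arrays. Of the Tsu-1 arrays, 9 of 12 lay above every Kas-1 array, and the difference was 0.70 ± 0.19 (SE, adjusted p = 0.00373). EXPA2 (AT5G05290), an expansin known from germinating seeds, had a smaller difference of 0.32 ± 0.05 (SE) but the smallest adjusted p of all members, 1.91e-05. Its spread within groups was low, between 7.22 and 7.53 for Tsu-1 arrays and between 6.84 and 7.30 for Kas-1 arrays. EXPA16 differed by 0.36 ± 0.08 (SE, adjusted p = 0.000839).

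Among the alpha-expansins of lower level in Tsu-1, EXPA4 led. It had 6.19, 6.95 and 7.42 in Tsu-1, against 6.86, 7.84 and 8.20 in Kas-1, and all 12 Tsu-1 arrays lay below the Kas-1 median. The difference was -0.82 ± 0.16 (SE, adjusted p = 0.000201). EXPA6 (AT2G28950) had 7.81, 8.99 and 9.79 in Tsu-1, against 8.37, 9.87 and 10.03 in Kas-1, a difference of -0.74 ± 0.21 (SE, adjusted p = 0.00605). Its 6 Kas-1 wet arrays were tightly grouped between 9.73 and 10.03, whereas the 6 Tsu-1 wet arrays ran between 7.81 and 9.76. The lowest of these was Tsu-1 wet array 9, which stood apart. Without the 4 arrays that stood apart, EXPA6 differed by -0.54 in wet soil (adjusted p = 0.077) and by -0.97 in dry soil (adjusted p = 0.00129). EXPA13 and EXPA15 differed by -0.54 ± 0.12 and -0.45 ± 0.09 (SE), and EXPA3 by -0.57 ± 0.24 (SE) with an adjusted p of 0.0489, a call lost in 18 of the alternatives.

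EXLA1 (AT3G45970) was the only expansin-like gene called. It had 7.65, 8.67 and 9.60 in Tsu-1, against 7.02, 7.99 and 9.24 in Kas-1, and 11 of 12 Tsu-1 arrays lay above the Kas-1 median. The difference was 0.78 ± 0.25 (SE, adjusted p = 0.0138). Without Tsu-1 wet arrays 7 and 9 and Kas-1 dry arrays 1 and 2, the difference was 0.63 and the adjusted p 0.0654. EXLA2 differed by 0.16 ± 0.09 (SE, 95% interval -0.04 to 0.35) and EXLB1 by -0.36 ± 0.20 (SE, 95% interval -0.77 to 0.04), and both intervals include 0. The uncalled alpha-expansins were EXPA5, EXPA10, EXPA11 and EXPA20, with differences between -0.28 and 0.29.

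XTH6 (AT5G65730) had the widest difference of all tested members. Its lowest, median and highest values were 7.56, 9.58 and 9.79 in Tsu-1 dry leaves, against 6.21, 8.07 and 8.84 in Kas-1 dry leaves. In wet soil they were 8.95, 9.73 and 10.30 in Tsu-1, against 7.41, 8.04 and 8.73 in Kas-1. In wet soil the accessions did not overlap, and over both soils 11 of 12 Tsu-1 arrays exceeded every Kas-1 array. The averaged difference was 1.46 ± 0.28 (SE, adjusted p = 0.000194), a 2.74-fold higher level in Tsu-1.

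XTH32 (AT2G36870) had the widest difference in the other direction. It belongs to the branch of the family, with XTH31, whose members act mainly as xyloglucan hydrolases. In dry leaves its values were 6.41, 7.69 and 8.24 in Tsu-1, against 7.08, 8.48 and 8.74 in Kas-1. In wet leaves they were 6.49, 6.66 and 8.04 in Tsu-1, against 8.23, 8.56 and 8.98 in Kas-1, with no overlap. The averaged difference was -1.09 ± 0.23 (SE, adjusted p = 0.00065), and all 12 Tsu-1 arrays lay below the Kas-1 median.

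XTH24 (MERI5, AT4G30270), named for its expression in meristems, was higher in Tsu-1. It had 10.03, 10.85 and 12.01 in Tsu-1, against 9.36, 10.13 and 11.31 in Kas-1, a difference of 0.84 ± 0.23 (SE, adjusted p = 0.00487). XTH16 was lower, with 5.53, 6.83 and 8.57 in Tsu-1, against 6.64, 7.71 and 8.43 in Kas-1, a difference of -0.83 ± 0.27 (SE, adjusted p = 0.0131). For XTH7 (AT4G37800) the values were 5.78, 6.76 and 7.48 in Tsu-1, against 6.12, 7.43 and 7.95 in Kas-1, a difference of -0.65 ± 0.21 (SE, adjusted p = 0.0159). Tsu-1 arrays on the far side of the Kas-1 median numbered 1 for XTH24, 2 for XTH16 and 1 for XTH7. The accessions overlapped, and Tsu-1 arrays beyond every Kas-1 array on the called side numbered 4, 5 and 3 of 12. Without the arrays that stood apart, the wet-soil differences were 0.51, -0.21 and -0.58 (adjusted p = 0.176, 0.713 and 0.0943). The dry-soil differences were then 1.16, -1.44 and -0.67 (adjusted p = 0.00187, 0.00317 and 0.0337).

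XTH27 (AT2G01850), which acts in the tracheary elements of leaf veins, was higher in Tsu-1 by 0.46 ± 0.10 (SE, adjusted p = 0.0006), and 9 of 12 Tsu-1 arrays exceeded every Kas-1 array. Markers of vascular cells moved the same way. Of the 5, 4 were tested and 3 were called higher in Tsu-1 (CESA4 by 0.42, CESA7 by 0.56 and SUC2 by 0.74), and none was called lower. Of all tested loci, 23.3% were called higher and 24.5% lower. The list mean lay between 7.40 and 8.22 in Tsu-1 dry arrays, against 7.26 and 7.58 in Kas-1 dry arrays, and between 7.60 and 7.92 in Tsu-1 wet arrays, against 7.06 and 7.61 in Kas-1 wet arrays. The part of these cells in the members' accession differences was not tested.

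The 9 XTH without a call were XTH4, XTH8, XTH9, XTH17, XTH18, XTH22, XTH28, XTH30 and XTH33, with differences between -0.44 and 0.20. XTH28 (AT1G14720) and XTH30 (AT1G32170) had narrow intervals, -0.09 to 0.24 and -0.23 to 0.22. The interval of XTH8 (AT1G11545), -1.30 to 0.43, leaves room for more than a doubling. In no member did all 12 Tsu-1 arrays separate from all 12 Kas-1 arrays, against 4.21% of tested loci.

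**Figure D2:**
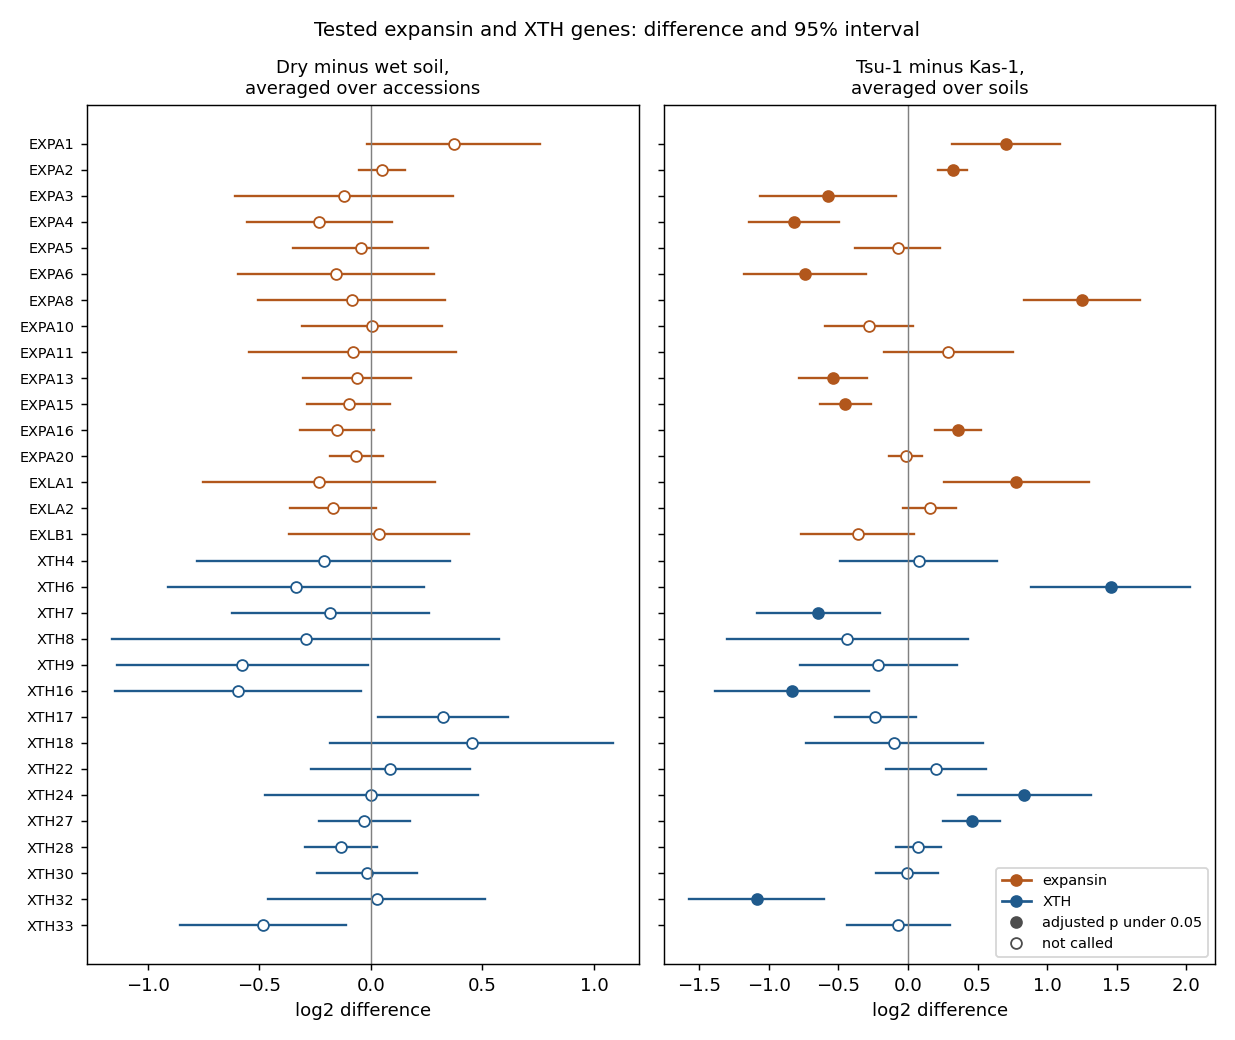
Log2 differences of the 31 tested members, for dry minus wet soil (left) and Tsu-1 minus Kas-1 (right), with 95% intervals from limma. Filled points have an adjusted p under 0.05. No point is filled on the left, and 16 are filled on the right, 8 on each side of 0.

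**Figure D3:**
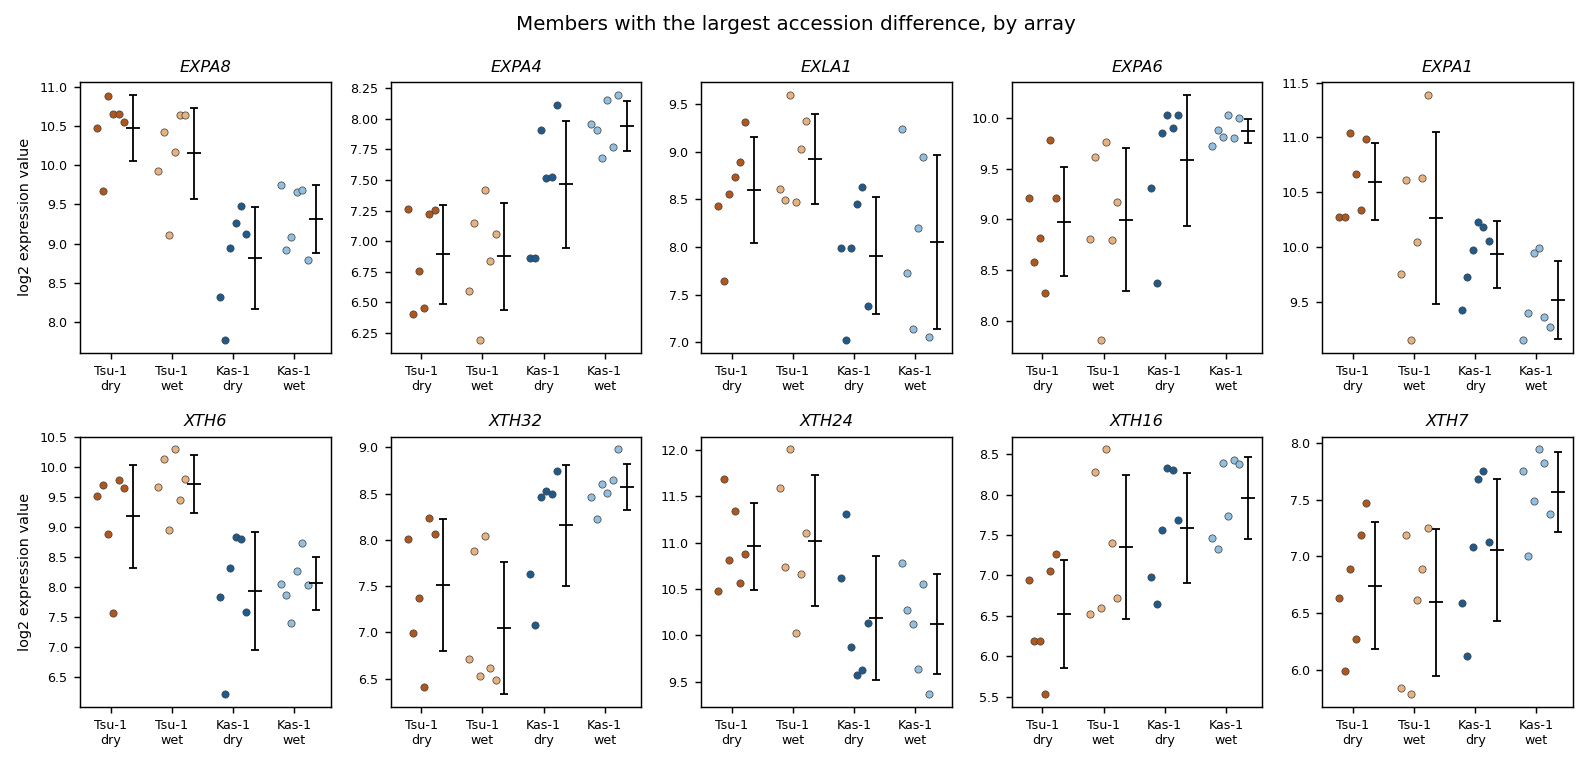
Log2 expression values of the 5 called expansins and 5 called XTH with the widest accession difference, by group. Points are arrays, and the bar beside each group is its mean ± SD (6 arrays). EXPA8 and XTH6 lie higher in Tsu-1 and XTH32 and EXPA4 lower, with some overlap of the accessions in every panel when the soils are pooled.

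The accession difference was also taken in each soil. In dry soil 6 of 31 members were called, against 30.5% of loci, namely EXPA2, EXPA8, EXPA16 and XTH6 as higher (16.8% of loci) and EXPA15 and XTH16 as lower in Tsu-1 (13.8% of loci). With quantile normalisation or median centring of the arrays, 4 higher and 4 lower were called, with EXPA4 and EXPA13 added. In wet soil 14 were called, 7 in each direction, against 30.1% of loci. These were EXPA1, EXPA2, EXPA8, EXPA16, XTH6, XTH24 and XTH27 as higher (13.2% of loci), and EXPA3, EXPA4, EXPA6, EXPA13, EXPA15, XTH7 and XTH32 as lower (16.9% of loci). Arrays of the accessions did not overlap in EXPA1, EXPA2 and EXPA8 in dry soil (11.6% of loci), and in EXPA2, EXPA3, EXPA4, EXPA15, XTH6 and XTH32 in wet soil (12.3% of loci).

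The dry-soil count depended on which arrays were kept. It was 3 (EXPA2, EXPA8 and XTH6) when Kas-1 dry arrays 4 and 5 were counted as 1, and also 3 without Kas-1 dry 4, without Kas-1 dry 5 or without Tsu-1 dry 3. It was 11 without Kas-1 dry 2, and 12 without the 4 arrays that stood apart. The dry-soil call of XTH6 was lost without those 4 arrays (0.80, adjusted p = 0.0788) and with only the compared arrays (1.25, adjusted p = 0.0583). The wet-soil count was 10 without those 4 arrays, and the count averaged over soils was 16 without them (7 higher, 9 lower) and 15 with the alike pair counted as 1. The difference between soils is the interaction given above, in which no member was called. For XTH32 the Tsu-1 minus Kas-1 difference was -0.64 ± 0.33 in dry soil and -1.53 ± 0.33 in wet soil (SE), and for EXPA8 it was 1.66 ± 0.29 in dry soil and 0.84 ± 0.29 in wet soil (SE).

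Several members are close paralogs with no gene between them in the RefSeq order, and signal shared between such paralogs cannot be told apart here. EXLA3 lies next to EXLA1 on chromosome 3, XTH24, XTH18 and XTH19 follow each other on chromosome 4, and XTH25 lies next to XTH22 on chromosome 5. EXLA3 had 4.93, 5.30 and 6.38 in Tsu-1 dry leaves, against 4.53, 4.81 and 5.01 in Kas-1 dry leaves. In wet leaves it had 4.77, 5.39 and 6.01 in Tsu-1, against 4.58, 4.73 and 5.03 in Kas-1. It was not tested at this limit, but a fit to all 20514 loci gave 0.64 ± 0.14 (SE, adjusted p = 0.000841), the same direction as EXLA1.

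The chromosome 4 neighbours did not share a called accession difference, although XTH24 and XTH18 lay on the same side of their group means in 19 of 24 arrays. XTH24 was higher in Tsu-1, XTH18 differed by -0.10 ± 0.31 (SE, 95% interval -0.73 to 0.54), and XTH19 stayed between 4.05 and 4.48 in all 24 arrays. XTH18 had 5.76, 7.51 and 8.28 in Tsu-1 wet leaves and 5.83, 6.81 and 8.55 in Kas-1 wet leaves, the widest wet ranges among these 3 genes. Of the other members of the subfamily of XTH18 and XTH19, XTH20 lay between 4.58 and 5.29 and XTH17 between 6.76 and 8.25. XTH22 ran between 11.03 and 12.94 over all arrays with a Tsu-1 minus Kas-1 difference of 0.20 ± 0.17 (SE), and its neighbour XTH25 ran between 4.67 and 6.37.

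In the fit to all loci, 0 of the 17 low members were called for drying averaged over the accessions, against 0.0487% of loci. The count was also 0 in Tsu-1 (0.00975% of loci) and in Kas-1 (0.00487% of loci). Averaged over soils, 6 of the 17 were called between the accessions, against 35% of loci, namely EXLA3 and XTH5 as higher and EXPB1, EXPB3, XTH23 and XTH31 as lower in Tsu-1. XTH15 (AT4G14130), which acts in petiole growth, had the smallest drying p of these 17 in Tsu-1. There it averaged 4.95 ± 0.17 in dry leaves and 5.60 ± 0.42 in wet leaves (SD, n = 6 each), and the highest dry array (5.10) lay just above the lowest wet array (5.05). The difference was -0.65 ± 0.14 (SE, adjusted p = 0.198). XTH23 had the smallest adjusted p of the 17 in Kas-1, 0.236, with a difference of 0.49 ± 0.14 (SE).

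The members varied more between arrays of the same group than most loci did. The median within-group SD was 0.49 over the 31 members, 0.40 over the expansins and 0.60 over the XTH, beside 0.20 over all tested loci. Of the 31, 18 lay above the 90th percentile of all loci (0.43), 7 of them expansins and 11 XTH. XTH8 had the widest spread, an SD of 1.10 at the 99.8th percentile, followed by XTH18 with 0.81 and XTH6 with 0.73. XTH8 ran between 6.48 and 9.67 in the 6 Tsu-1 wet arrays alone. EXPA2 was the most even, with an SD of 0.11.

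These departures were shared between members. For each pair of members, the arrays in which both lay on the same side of their group mean were counted. In 26.7% of 465 member pairs this held in 18 or more of the 24 arrays, against 6.71% of all pairs of tested loci, which share the same arrays and their array-wide deviations. Loci with a spread like that of the members were not compared, and the arrays that stood apart were included. The share was 26.7% among pairs of expansins, 28.6% among pairs of XTH and 25.8% in pairs across the families. XTH4 with XTH8, XTH9 with XTH32, and EXPA8 with XTH7 were on the same side in 23 arrays, and XTH18 with XTH22 in 20. XTH4 and XTH9 are known from wood formation in stems. EXPA5 and EXPA10 were each on the same side as XTH8 in 22 arrays.

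XTH24 ran against it. It lay on the same side as XTH28 in 3 arrays, and as XTH8, XTH16 and XTH32 in 4 arrays each. With its neighbour XTH18 it was on the same side in 19 arrays. Touch and handling genes (TCH2, TCH3, CAM2, WRKY40, ZAT10, ZAT12 and CML38), which respond within minutes to mechanical stimuli, moved between the same arrays. In Tsu-1 wet arrays 7 and 9 these 7 genes averaged 0.52 and 0.74 above their group mean, and in arrays 8 and 10 they averaged -1.08 and -0.66. The departures were not particular to expansins and XTH. The 6 arabinogalactan and proline-rich wall proteins described below averaged -0.58 and -1.08 from their group mean in Tsu-1 wet arrays 7 and 9. In arrays 8 and 10 they averaged 0.58 and 0.86, and in Kas-1 dry arrays 1 and 2 -0.52 and -0.96. The 9 primary wall cellulose genes averaged -0.22 and -0.21 in Kas-1 dry arrays 1 and 2, but 0.00 and -0.18 in Tsu-1 wet arrays 7 and 9.

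Across Tsu-1 wet arrays 7 to 10 XTH18 followed the touch genes and XTH16 did the reverse, but this did not hold in every group. In Tsu-1 wet arrays 7 and 9 XTH18 was at 7.54 and 8.28, and in arrays 8 and 10 at 5.76 and 6.05. XTH16 was at 6.52 and 6.59 in arrays 7 and 9, and at 8.28 and 8.57 in arrays 8 and 10. XTH18 also followed the touch genes in Kas-1 wet arrays 7 and 12 (8.55 and 6.07, touch genes 0.45 and -0.63). It did not in Tsu-1 dry array 5 (7.95, the highest of its group, touch genes -0.10). XTH16 did not run against them in Kas-1 wet array 11 (8.43, the highest of its group, touch genes 0.16). The part of handling in the spread of the members was not tested.

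**Figure D4:**
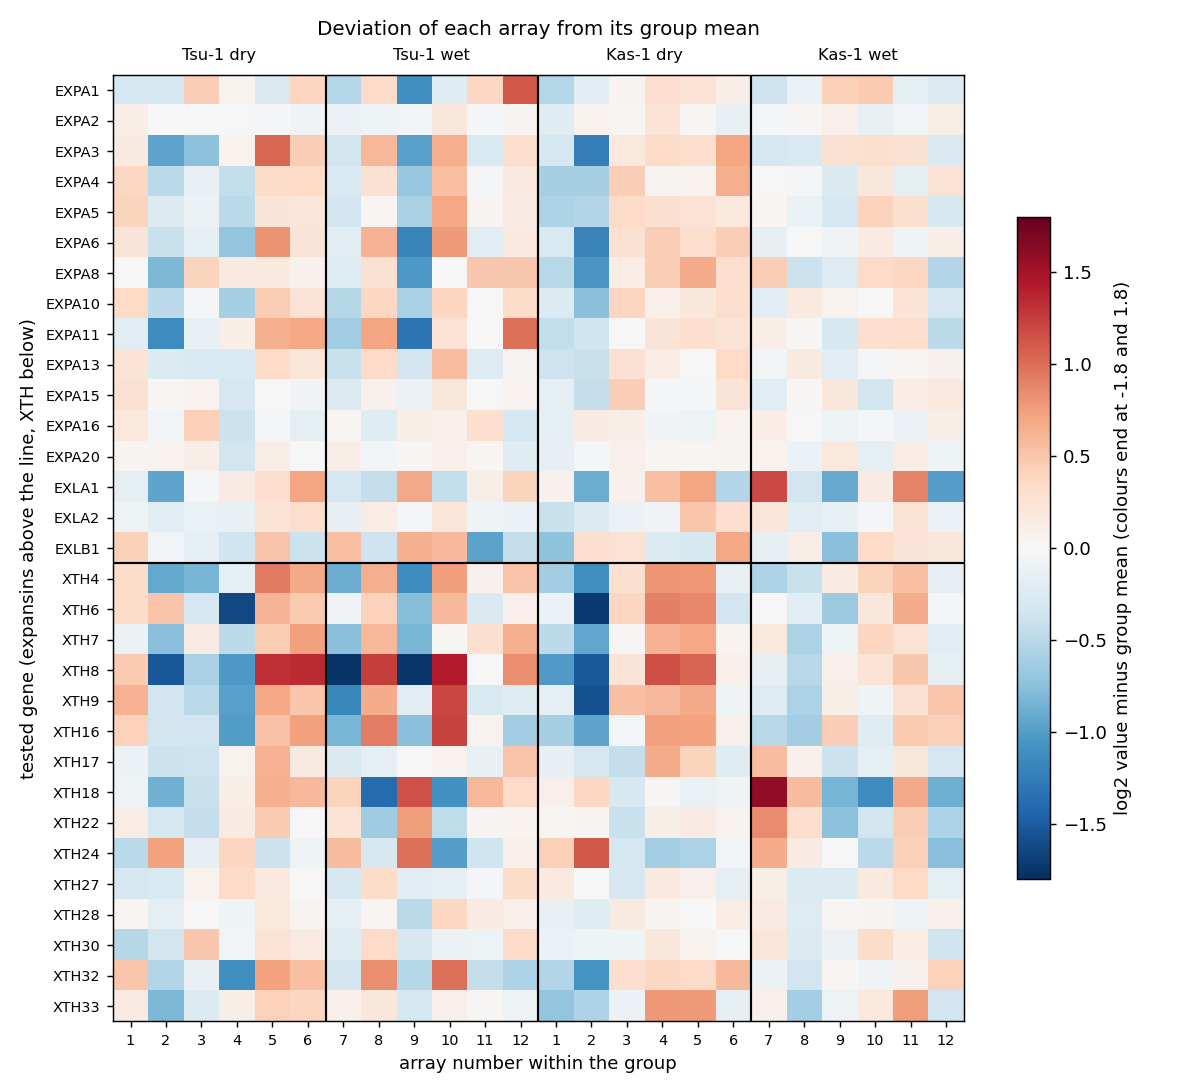
Deviation of each array from its group mean for the 31 tested members, in log2 units. Columns are the 24 arrays by group, and rows are expansins above the line and XTH below it. Tsu-1 wet arrays 7 and 9 and Kas-1 dry arrays 1 and 2 are low for most members, and XTH24 shows the opposite sign in most of them.

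Other genes of wall building and growth were read from lists of known pathway genes. For drying averaged over the accessions 0 genes were called in each of these lists. All 9 tested genes of primary wall cellulose synthesis had differences below 0 (57.4% of all loci), between -0.30 and -0.06, with a median of -0.13. Within the accessions 5 of the 9 lay below 0 in Tsu-1 (49.8% of loci), with a median of -0.02, and all 9 in Kas-1 (60.9% of loci), with a median of -0.26, or 7 without the 4 arrays that stood apart. All 6 arabinogalactan and proline-rich wall proteins (FLA1, FLA2, FLA8, FLA9, PRP2 and PRP4) also lay below 0, with a median of -0.28. In Tsu-1 all 6 lay below 0 with all arrays (median -0.28; 49.8% of loci) and without the 4 arrays (median -0.65; 47.9% of loci). In Kas-1 all 6 lay below 0 with all arrays (60.9% of loci), and 3 without the 4 arrays (59.1% of loci). The 7 touch and handling genes all lay above 0, with a median of 0.19. These lists hold few genes and were read beside the 57.4% of all loci below 0.

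Between the accessions, averaged over soils, the share called was 45.5% for xyloglucan genes, 44.4% for primary cellulose, 50% for structural proteins and 50% for pectin, near the 47.7% of all loci. Of 11 genes of xyloglucan synthesis and trimming, which make and modify the XTH substrate, BGAL10 and AXY8 were higher in Tsu-1, and XXT2, MUR3 and FUT1 were lower. Of 9 primary cellulose genes 0 were higher and 4 were lower (CESA2, CESA3, COB and CTL1, by at most 0.40). Of 6 structural wall proteins 0 were higher and 3 were lower, led by PRP2 at -0.98 ± 0.22 (SE). Of 8 tested pectin genes, QUA2 was higher and PME3, PME41 and PMR6 were lower, with PME41, a pectin methylesterase, at -1.57 ± 0.32 (SE).

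Of 7 tested growth regulators upstream of wall loosening, 6 were called higher in Tsu-1 (23.3% of all loci) and 1 lower (24.5% of all loci). The brassinosteroid enzyme CPD was higher by 0.96 ± 0.07 (SE, adjusted p = 4.98e-10), with all 12 Tsu-1 arrays above all Kas-1 arrays. The brassinosteroid enzyme DWF4 and receptor BRI1 were higher by 0.41 and 0.51, the growth factors PIF4 and PIF5 by 0.39 and 0.52, and the auxin response gene IAA19 by 0.27. The shade-induced transcription factor HB-2 was lower by 0.56, again with no overlap. Of 4 plasma membrane proton pumps, which acidify the wall, AHA3 was higher by 0.67 ± 0.10 and AHA11 lower by 0.32 ± 0.11 (SE). Of the 7 touch and handling genes ZAT12 and CML38 were higher by 0.45 and 0.55. Of the leaf markers CA1 was lower by 0.56, and of the cell division genes the single one tested, KN, was lower by 0.59. Root markers and guard cell markers, with 1 tested gene each, had 0 calls between the accessions averaged over soils, and the root gene NRT2.1 was called higher in Tsu-1 in wet soil, by 0.42 (adjusted p = 0.00941).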

How the data were processed

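Per the labels, leaf RNA was labelled as biotinylated cRNA. The authors deposited 1 table of log2 values for 20514 loci and 24 arrays, whose unit was taken from the range of the values. The submitters' processing notes name MAS5 without a version or role. The background correction, probe summary and normalisation are not given in the sources used here. The number of arrays limits the precision.

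Loci with a mean above the 40th percentile (6.19) were tested (12308). The 4 group means were fitted to all 24 arrays in R 4.3.3 with limma 3.58.1 and an intensity trend. P-values are two-sided, with Benjamini-Hochberg adjustment over all tested loci in each comparison. The fit was tested on simulated data. Symbols were matched to RefSeq TAIR10.1, which held all 48 members and names EXPA3, XTH22, XTH23 and XTH27 as EXP3, TCH4, XTR6 and EXGT-A3.

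The members and gene lists were chosen with earlier results of these data known. Described in full by rule were the 4 per family with the smallest drying p, the 5 called per family with the widest accession difference, and neighbouring or subfamily paralogs. EXPA2, EXPA3, EXPA5, EXPA10, EXPA13, EXPA15, EXPA20, EXLB1, XTH4, XTH8, XTH15, XTH23, XTH27, XTH28 and XTH30 fall outside it and were given values after these were seen. Alternatives were quantile normalisation, median centring, no filter or a higher one, array weights, no trend, arrays averaged to 3 per group, alike arrays as 1, only the compared arrays, a block for the number in the titles, and each array left out in turn. Leaving out the 4 arrays of low weight was chosen after seeing the data.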

Additional observations from a re-analysis of the deposited data

Results flagged for a closer look

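EXPA8 in Tsu-1 dry array 2 lay far from the other arrays of its group. Its log2 value was 9.67, whereas the next lowest Tsu-1 dry array had 10.47 and the highest 10.88. The gap to the nearest array was 0.662 of the group's range, above Dixon's 95% critical value for 6 arrays. It was the 1 such case among 60 groups of arrays examined for the 15 named members, and chance gives about 1 in 20 groups. The value still lay above every Kas-1 dry array.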

How the results depend on the processing

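The drying and interaction counts of called members were 0 under every alternative run, including all 24 single-array omissions. Under array weights 102 loci were called for drying averaged over the accessions and 1003 for drying in Kas-1, again with 0 members. The accession count averaged over soils ranged from 11 to 21 (main 16, and 15 to 17 with an array left out), and the wet-soil count from 10 to 18 (main 14, and 10 to 14 with an array left out). These ranges include the fit without a filter, which tested all 48 members, and the higher filter, which tested fewer than 31. They are therefore not all counts over the same 31 members. The dry-soil count of 6 was 11 with array weights, 3 with the alike arrays counted as 1, 12 without the 4 arrays of low weight, and 3 to 11 with an array left out. The cause was not tested. Among the 15 members described in full, none reversed in its averaged comparison and 1 call was lost, that of EXLA1 without the 4 arrays of low weight (0.63). Of the other members called over both soils, EXPA3 lost its call in 18 alternatives, among them the fit without a filter and single-array omissions. Calls within 1 soil were lost more often, in 24 alternatives for EXPA15 and 10 for XTH16 in dry soil, and in 10 for EXPA1 in wet soil. Averaged drying differences that moved by over 1.5 times were, with array weights, 0.19 for EXPA1 (main 0.37), -0.06 for EXPA16 (main -0.15), -0.38 for XTH16 (main -0.59) and -0.35 for XTH9 (main -0.58), and without the 4 arrays of low weight -0.11 for EXLA2 (main -0.17).

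No steady pairing of arrays by the numbers in the titles was seen, and no label says what the numbers stand for. Of 12 same-number pairs, 4 correlated over 0.1 (range -0.397 to 0.555), and 2 arrays matched their own number best. With the replicate block, 16 members were called over both soils, 6 in dry soil (3 of them shared with the fit without it), 13 in wet soil and 0 for the interaction. For averaged comparisons and the interaction, a fit on only the compared arrays is the same fit, so it was not run.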
